A study of Rattus norvegicus with 5 samples.

Results

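Rat chromosome 1 from 157000000 to 167000000 (build rn4) was described through the PARP1 ChIP-seq peaks listed in it. The libraries came from cocaine-trained rats that showed a high place preference (the high library), cocaine-trained rats that showed a low one (the low library) and rats given saline only (saline replicates 1 and 2). All listed peaks that start in these 10 Mb were taken: 12456 of the high library, 14102 of the low library, 2896 of saline replicate 1 and 14848 of saline replicate 2. Together these were 44302 of the 12173850 peaks listed by the 4 libraries. The 10 Mb were chosen by the heights of a pileup at 162340788 to 162342127, which stands far taller in the high library than in the others. That difference in height is therefore a description here, with no test.

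Chromatin immunoprecipitation with sequencing (ChIP-seq) used an anti-PARP1 antibody on tissue of the central amygdala from Sprague Dawley rats, all male. The rats had been trained for 10 days in conditioned place preference, in which injections are paired with compartments, and the preference test of 15 min came 24 h after the final dose. All 4 libraries come from tissue collected directly after it. Cocaine was given intraperitoneally at 15 mg/kg and alternated with saline, and the control rats had saline throughout. Each library pooled the tissue of 2 rats, so no value belongs to a single animal. With 1 library in each cocaine group there is no test between groups, and the 2 saline libraries give the only spread within a group. Input DNA was not analysed here.

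PARP1, poly(ADP-ribose) polymerase 1, is an abundant nuclear enzyme that binds DNA breaks and chromatin. Once active it attaches chains of ADP-ribose to itself and to other chromatin proteins, which loosens chromatin and recruits repair factors, and it also takes part in the control of transcription. The central amygdala is a part of the brain that is involved in emotional learning and in responses to cues linked to drugs. It holds several kinds of neurons and glia, and a pileup from whole tissue cannot be assigned to any of them.

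A listed peak is a stretch of overlapping reads, and its height is the number of reads at its summit. The running number of the deposited lists also counts pileups that were not listed, so that the difference between running numbers gives all numbered pileups in a stretch. An unlisted pileup has no position of its own and was counted with the next listed peak. Saline replicate 1 was the shallowest library, with 793020 listed peaks and 5739598 numbered pileups. The other libraries had 3369979 to 4037021 listed peaks and 11375385 to 12336771 numbered pileups. Listed peaks were 13.8% of numbered pileups in saline replicate 1 and 29.6% to 32.7% in the others. Ratios of counts and of summed heights were therefore scaled by each library's total of the same measure on the rest of chromosome 1. Ratios of single peak heights were scaled by the numbered pileups there. The 95% intervals of ratios are exact conditional binomial intervals and cover counting error only. For heights of single peaks, all intervals treat each read as an independent count. Reads of 1 peak are not independent of each other, so these intervals may be too narrow.

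The pileup at the centre of these 10 Mb reached 288 reads in the high library, 35 in the low library, and 4 and 22 reads in saline replicates 1 and 2. It stood highest by far in the high library, and the low library lay nearest to it. Scaled by numbered pileups, the high library was 8.83 times the low library (interval 6.20 to 12.9), 14.0 times saline replicate 2 (9.09 to 22.7) and 36.5 times saline replicate 1 (14.1 to 135). The ratio to saline replicate 1 depends on the scale, since this library is shallower in summed heights than in numbered pileups. It was 15.8 with a scale from summed heights and 72 with none, and every scaled height ratio to saline replicate 1 carries this dependence. The low library was 1.59 times saline replicate 2, with an interval of 0.906 to 2.84 that includes 1. It was 4.13 times saline replicate 1 (1.476 to 15.99), an interval that leaves out 1 on this scale. With the scale from summed heights the factor of saline replicate 1 was 0.240 instead of 0.555, and the interval would include 1. Saline replicate 1 was at 0.385 of saline replicate 2 (0.0964 to 1.13).

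Outside saline replicate 1, the length of the pileup varied far less than its height, although both fell in the same order. A single listed peak of 1339 bp in the high library, 1315 bp in the low library and 1286 bp in saline replicate 2 covered the same ground. In each of these 3 libraries it was the longest listed peak on the whole of chromosome 1. In saline replicate 2 this was so although 7 other peaks of the chromosome were taller than its 22 reads, and in the low library although 2 were taller than 35 reads. The next longest peak of chromosome 1 was 690 bp in the high library, 736 bp in the low library and 1220 bp in saline replicate 2. Saline replicate 1 held 6 numbered pileups there, of which 4 were listed, of 59 to 155 bp and 2 to 4 reads.

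The summit lay at 162341506 in the high library, 162341443 in the low library and 162341250 in saline replicate 2. It thus fell 718, 633 and 414 bp from the start of the peak. The tallest piece in saline replicate 1 had its summit at 162341115. All 4 summits lay inside the pileup, and those of the 2 cocaine libraries were closer to each other than to those of the saline libraries. Heights of 22 and 4 reads place a summit only loosely.

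**Figure D1:**
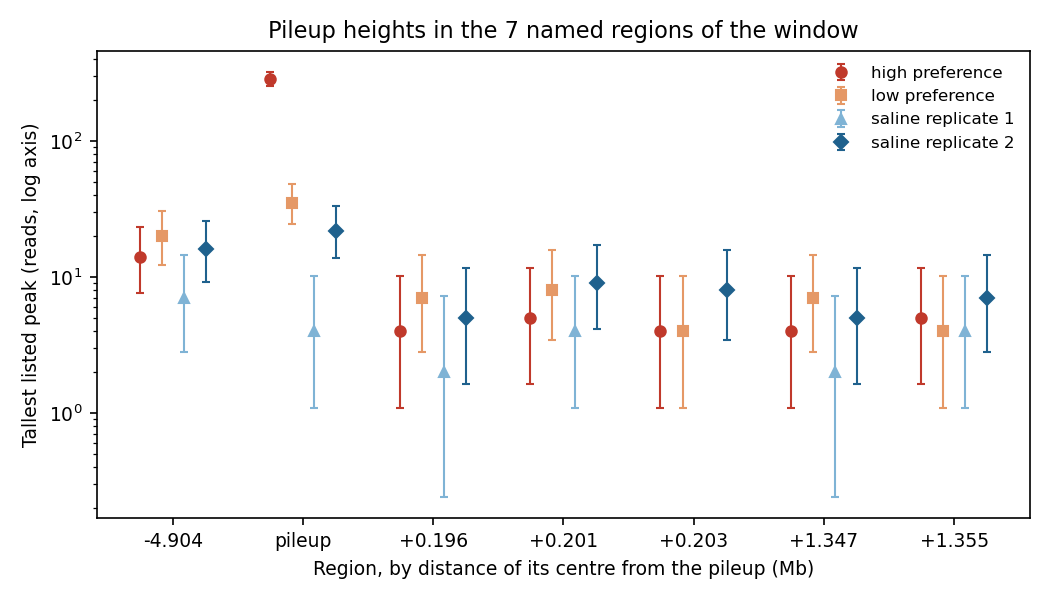
Height of the tallest listed peak (reads, log axis) in the pileup and in the 6 other regions with the tallest peaks of the stretch, ordered by distance of the region's centre from the pileup (Mb), with exact 95% Poisson intervals. A missing triangle means that saline replicate 1 listed no peak. The high library stands apart at the pileup with 288 reads, and at the region 4.9 Mb before it the libraries lie at 14, 20, 7 and 16 reads with overlapping intervals.

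No other region of the 10 Mb came near a height of 288 reads. The second tallest region lay 4.90 Mb before the pileup, at 157436792 to 157437283. Its heights were 14 reads in the high library and 20 in the low library, with 7 in saline replicate 1 and 16 in saline replicate 2. All 4 libraries thus showed it, with scaled ratios of the high library of 0.751 (0.351 to 1.56) over the low library, 1.01 (0.382 to 2.96) over saline replicate 1 and 0.938 (0.424 to 2.05) over saline replicate 2. With a scale from summed heights the ratio to saline replicate 1 was 0.438. Elsewhere on chromosome 1, 7 regions had at least 10 reads in each of the 3 deeper libraries. There the scaled ratio of high over low preference ran from 0.771 to 1.38, with a median of 0.987, and that over saline replicate 2 from 0.840 to 1.21. The pileup, at 8.83 and 14.0, lay outside both ranges, as its choice implies.

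Directly beside the pileup, counts were low in all libraries. Within 5 kb on either side the high library listed 9 peaks, the low library 5, saline replicate 2 listed 4 and saline replicate 1 none, and the tallest had 3 reads. Within 10 kb of the centre, 56 numbered pileups lay in the high library against 66 in the low library and 70 in saline replicate 2. The ratio of high over low preference was 0.911 (0.626 to 1.32) and that over saline replicate 2 was 0.857 (0.592 to 1.236). At counts of this size no excess of numbered pileups was detectable beside the pileup in the library where it was tallest. The nearest listed peak before the pileup ended 4660 bp away in the high library, 4652 bp in the low library, 1921 bp in saline replicate 2 and 10815 bp in saline replicate 1, and each had 2 reads. On the other side the nearest one began 1004 bp after the pileup in the high library, 3206 bp in the low library, 7007 bp in saline replicate 1 and 3758 bp in saline replicate 2, again with 2 reads each.

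Listed peaks within 50 kb of the pileup were fewer, relative to the rest of chromosome 1, in the other 3 libraries than in saline replicate 2. Within 10 kb the high library had 19, the low library 15, saline replicate 1 had 1 and saline replicate 2 had 23, and high over low preference was 1.49 (0.718 to 3.15). Within 50 kb the counts were 112, 116, 22 and 177. Scaled by listed peaks, the high library was at 0.744 of saline replicate 2 (0.582 to 0.948), the low library at 0.655 (0.513 to 0.832) and saline replicate 1 at 0.620 (0.379 to 0.969), and none of these intervals includes 1. Over the low library the high library was at 1.14 (0.869 to 1.49). Within 100 kb the high library was at 0.820 of saline replicate 2 (0.689 to 0.974) and at 1.16 of the low library (0.960 to 1.40). No ranking of these ratios among stretches of the same size elsewhere on chromosome 1 is given. The largest count of listed peaks close to the pileup was thus in saline replicate 2, not in the library where the pileup was tallest.

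The 100 kb bin that holds the pileup, 162300000 to 162400000, had 396 numbered pileups in the high library. It had 464 in the low library, with 227 in saline replicate 1 and 477 in saline replicate 2. By scaled ratio the high library was below each of them, at 0.916 of the low library (0.799 to 1.05), 0.883 of saline replicate 1 and 0.890 of saline replicate 2. Among 2597 bins of chromosome 1 this ratio to the low library ranked 2349 from the top. The bin before had a ratio of 1.04 (0.911 to 1.19) and the bin after one of 1.08 (0.939 to 1.246), so that the 3 bins lay on both sides of 1 with intervals that include it.

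Over wider flanks, with the pileup left out, the high library held 41426 numbered pileups in the 10 Mb, or 414 per 100 kb. The low library held 43757 (438 per 100 kb), saline replicate 1 held 20644 (206) and saline replicate 2 held 44619 (446). Scaled to the rest of chromosome 1, high over low preference was 1.02 (1.00 to 1.03), high preference over saline replicate 1 was 1.02 and high preference over saline replicate 2 was 0.995 (0.982 to 1.01). The saline libraries gave 0.979 for replicate 1 over replicate 2. The flanks of the high library thus lay within about 2% of those of each other library, and the gap between the saline pair was of that size too.

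**Figure D2:**
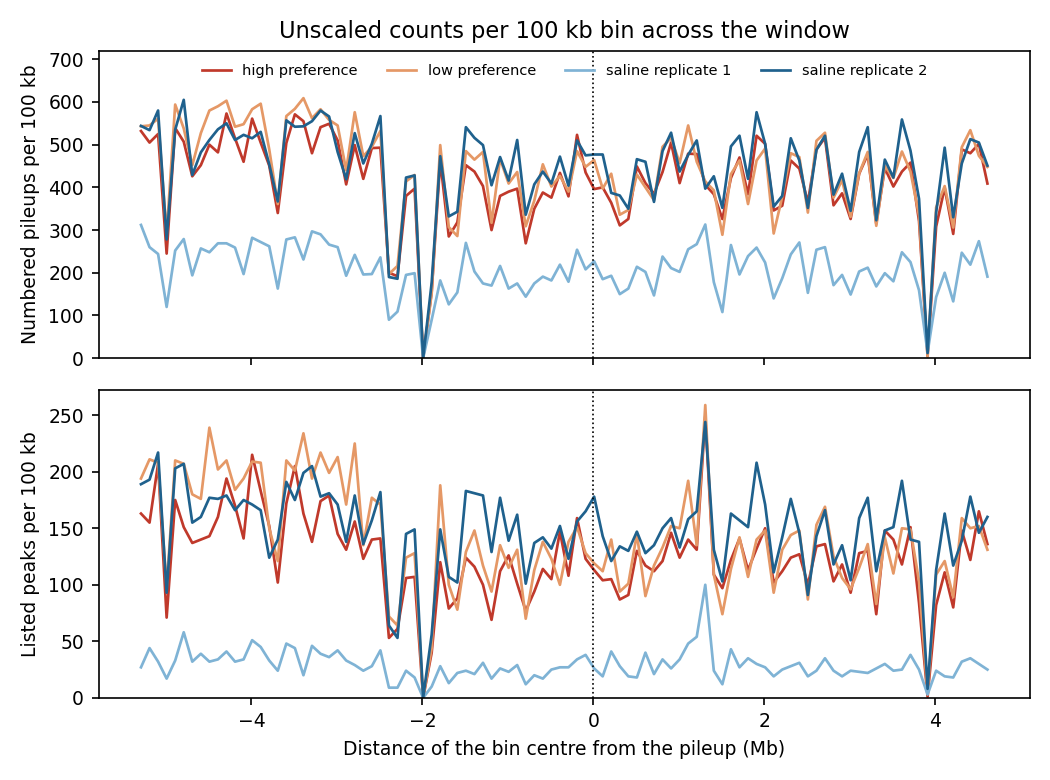
Numbered pileups (top) and listed peaks (bottom) per 100 kb bin against the distance of the bin's centre from the pileup (Mb), unscaled, with 1 line per library and a dotted line at the pileup. The lines rise and fall together, saline replicate 1, the shallowest, runs lower, no step appears at the pileup, and all libraries drop to 0 in 1 bin before it and nearly to 0 in 1 bin after it.

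The same measures were taken in the 25 other 10 Mb windows tiled along chromosome 1. There high over low preference for numbered pileups ran from 0.985 to 1.04, with an SD of 0.0130, and the 10 Mb around the pileup ranked 3 of 26. Against saline replicate 1 they ranked 6, in a range of 0.970 to 1.04, and against saline replicate 2 they ranked 18, in a range of 0.919 to 1.03. For listed peaks the ratio of high over low preference was 1.04 (1.02 to 1.07), again rank 3 of 26, in a range of 0.960 to 1.10. Listed peaks of the high library were 1.01 of saline replicate 1 (rank 10) and 0.987 of saline replicate 2 (rank 20). Summed heights without the pileup gave 1.04 over the low library, in a range of 0.958 to 1.11. Every one of these ratios lay inside the range of the other windows. The window with the highest ratio of numbered pileups over the low library was 67000000 to 77000000 and the one with the lowest was 17000000 to 27000000.

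**Figure D3:**
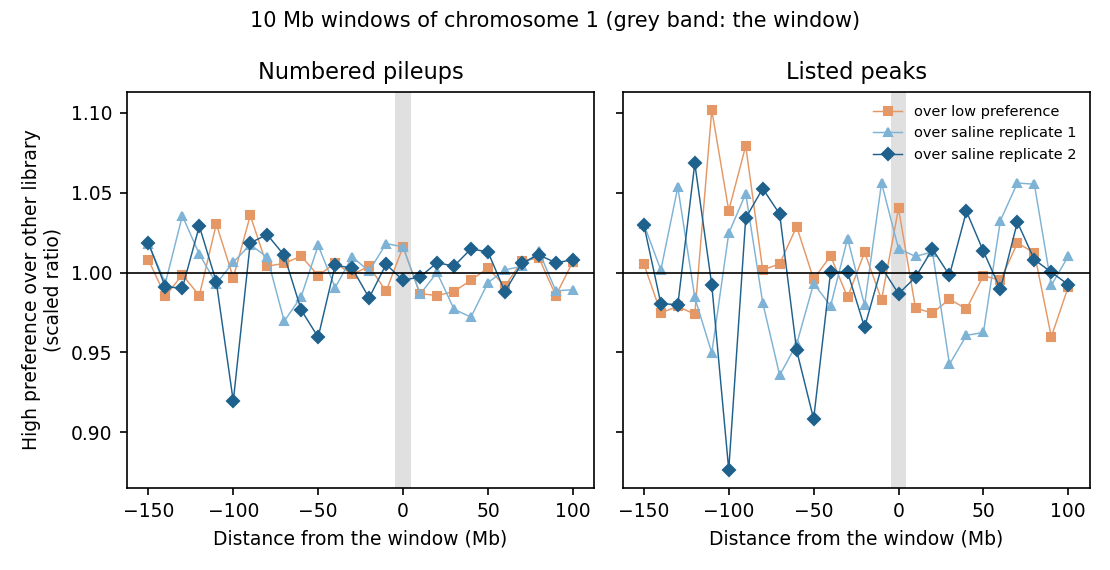
Scaled ratio of the high library over each other library for numbered pileups (left) and listed peaks (right) in 26 windows of 10 Mb, against the distance of each window from the one that holds the pileup (Mb, grey band). Within the band the ratios lie from 0.987 to 1.04, inside the range of the 25 other windows.

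The flanks before and after the pileup were not alike in the comparison of the 2 cocaine libraries. Before it, high over low preference was 0.991 (0.973 to 1.01) for numbered pileups and 0.989 (0.958 to 1.02) for listed peaks. After it, the ratios were 1.05 (1.03 to 1.07) and 1.11 (1.07 to 1.15). Against saline replicate 2 the high library stayed near 1 on both sides, at 0.996 (0.978 to 1.01) and 0.994 (0.974 to 1.01). The low library stood at 1.01 (0.988 to 1.02) of saline replicate 2 before the pileup and at 0.948 (0.929 to 0.967) after it. Against saline replicate 1 the low library likewise stood at 1.02 before the pileup and 0.971 after it, and the high library at 1.02 on both sides. The value after the pileup against saline replicate 1 rested in part on 200 kb with many pileups in that replicate, described further on. Without those the low library was at 0.988 of saline replicate 1 (0.963 to 1.01) and at 0.947 of saline replicate 2 (0.928 to 0.967). The high library was then at 1.03 of saline replicate 1 (1.01 to 1.06), an interval that leaves out 1. It was at 0.992 of saline replicate 2 (0.972 to 1.01). After the pileup the low library thus lay below saline replicate 2. Saline replicate 1 lay below it too, at 0.959 (0.935 to 0.983) without the 200 kb. With them it was at 0.976 (0.953 to 1.00, an interval that includes 1). The gap between the low library and saline replicate 2 was thus not far from the gap within the saline pair.

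On chromosome 1 cut into 53 tiles of 5 Mb, the tile from 162000000 to 167000000 had the highest ratio of high over low preference, at 1.05 for numbered pileups and 1.11 for listed peaks. The 51 tiles outside the stretch ran from 0.972 to 1.04 and from 0.944 to 1.11, so that for listed peaks the tile was level with the next one. For low preference over saline replicate 2 the same tile ranked 49 from the top at 0.948, inside a range of 0.915 to 1.05. The tile from 157000000 to 162000000 ranked 45 of 53 for high over low preference, at 0.984. Ratios also moved with how densely a window was filled. Over the 25 other 10 Mb windows, Spearman's correlation between the numbered pileups of the low library and the ratio of high over low preference was -0.53 for numbered pileups and -0.56 for listed peaks. For listed peaks it was 0.72 with the ratio of low preference over saline replicate 2 and 0.42 with that of high preference over saline replicate 2. The low library's count or peaks enter 3 of these 4 ratios, below the line where the sign is negative and above it where the value is 0.72, so the measures are not independent. The low library had 459 numbered pileups per 100 kb before the pileup and 413 after it, and the part of this density in the ratios was not tested.

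Single bins followed this. A bin was called when one library's scaled count was at least 25% above the other's, and 98 of the 100 bins passed the minimum of 50 numbered pileups on average. Of these, 1 was higher in the high than in the low library, where 0.433% of the 26531 bins of all placed chromosomes were called. None was lower, against a background of 0.678%. These shares come from ratios of single libraries, for which no test exists. The 1 bin called, 164400000 to 164500000, had 346 numbered pileups in the high library and 292 in the low library, a ratio of 1.27 (1.09 to 1.49). It had 140 in saline replicate 1 and 355 in saline replicate 2, and the ratio to saline replicate 2 was 1.04. The next highest were 163800000 to 163900000 at 1.21 (1.03 to 1.42) and 164200000 to 164300000 at 1.21 (1.064 to 1.372), both after the pileup as well. The lowest were 161200000 to 161300000 at 0.873 (0.761 to 1.00), 157900000 to 158000000 at 0.877 (0.776 to 0.991) and 161000000 to 161100000 at 0.895 (0.783 to 1.02), all before it.

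Bins above a ratio of 1 were 25 of 52 before the pileup and 35 of 45 after it. Against saline replicate 2 the high library was above 1 in 24 of 52 and 24 of 45 bins, whereas the low library was above it in 27 of 52 and 12 of 45. Saline replicate 1 was itself above saline replicate 2 in only 20 of 52 and 14 of 45 bins. Few bins above saline replicate 2 after the pileup were thus not particular to the low library. Against saline replicate 1 the high library was above 1 in 34 of 52 and 31 of 45 bins, and the low library in 31 of 52 and 24 of 45, with a median of 1.01 after the pileup. Across the 98 bins the SD of the log2 ratio of high over low preference was 0.11, against 0.15 over the rest of chromosome 1. Against saline replicate 1 the spread was 0.18. Its bins held a median of only 202.5 numbered pileups, which widens the counting error. No bin was higher in the high library than in saline replicate 2 (background 0.339%) and 1 was lower (background 1.04%). Against saline replicate 1, 5 were higher (background 5.7%) and 1 was lower (background 2.5%), and the lower one was the bin rich in tall peaks described further on. On the rest of chromosome 1 the shares called were, in the same order, 0.440%, 1.08%, 3.93% and 2.29%. Counted by listed peaks, 13 of the 98 bins were higher in the high than in the low library (background 5.18%), 9 of them after the pileup, and 2 were lower (background 9.19%). These were 13.3% and 2.04% of the bins, against 6.80% higher and 6.56% lower on the rest of chromosome 1.

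**Figure D4:**
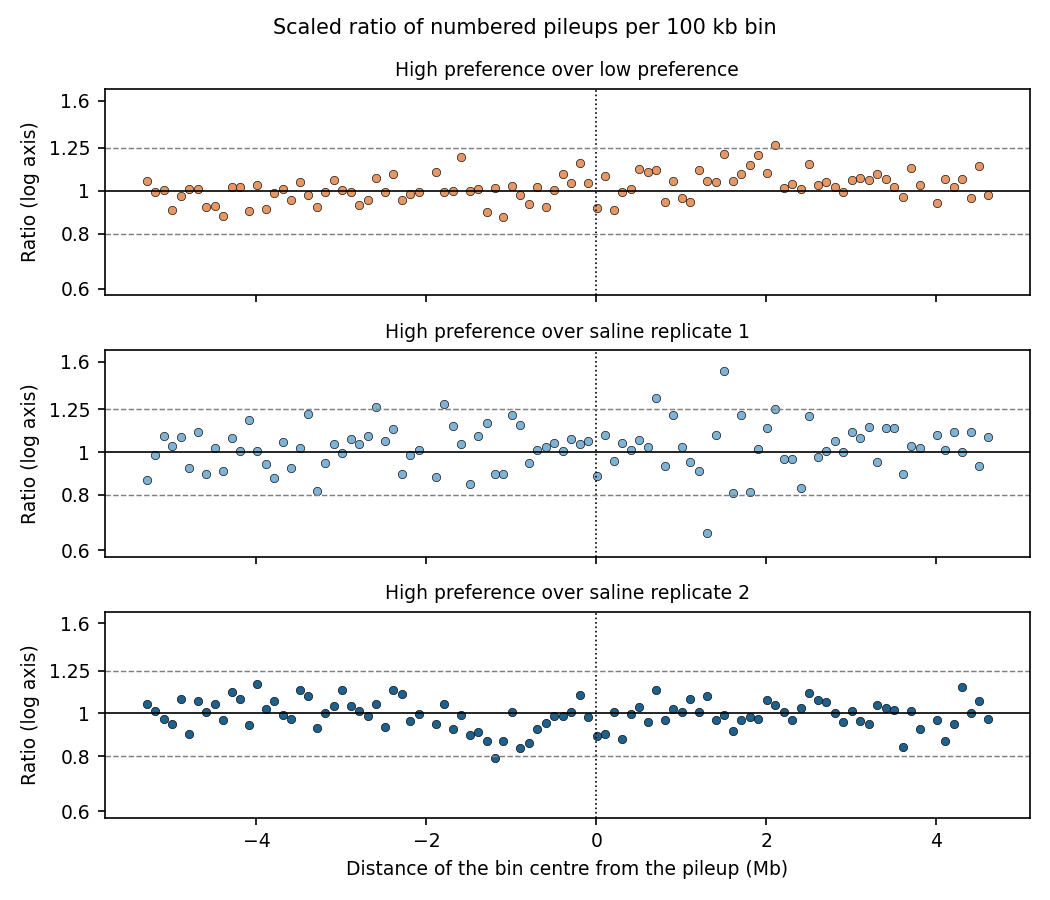
Scaled ratio of numbered pileups in the high library over each other library (log axis) in 100 kb bins, against the distance of the bin's centre from the pileup (Mb). Dashed lines mark 25% more in either library. Over the low library 35 of 45 bins after the pileup lie above 1, over saline replicate 2 the points stay around 1 on both sides, and the points of saline replicate 1 scatter most.

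Heights in the flanks had much the same make-up as on the rest of the chromosome. Peaks of 2 reads were 78.6% of the flank peaks in the high library, 76.2% in the low library, and 89.6% and 75.7% in saline replicates 1 and 2. On the rest of chromosome 1 the shares were 78.9%, 76.2%, 91.0% and 76.4%. The median length of a flank peak was 78 bp, 79 bp, 76 bp and 79 bp, as on the rest of the chromosome. Peaks of at least 5 reads numbered 65, 99, 2 and 104 in the flanks. Per 1000 listed peaks these were 5.22, 7.02, 0.692 and 7.005, and each was above the 4.25, 5.87, 0.566 and 5.84 of the rest of chromosome 1. For saline replicate 1 this rests on 2 peaks, too few to show a difference. The 10 Mb ranked 6, 8, 6 and 5 among 26 windows by the number of such peaks.

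In the 3 deeper libraries that excess stood in 1 stretch of 200 kb, from 163500000 to 163700000, which was singled out after its values were seen. It held 20 of the 65 peaks of at least 5 reads in the high library, 20 of 99 in the low library, 33 of 104 in saline replicate 2 and 1 of 2 in saline replicate 1. Outside it 45, 79 and 71 such peaks remained in the flanks of the high library, the low library and saline replicate 2. In each of these libraries that was a smaller share of listed peaks than on the rest of chromosome 1. The bin from 163600000 to 163700000 had 249 listed peaks in the high library and 259 in the low library, with 100 in saline replicate 1 and 244 in saline replicate 2. Among the 2680 bins of chromosome 1 it ranked 2, 8, 2 and 2 by that count. Its numbered pileups were not unusual in the 3 deeper libraries, at 406, 414 and 397 in high preference, low preference and saline replicate 2. Listed peaks were 61.3%, 62.6% and 61.5% of them, about 2 times the share over the flanks of 30.1%, 32.2% and 33.3%. In saline replicate 1 the share was 31.9%, against 14.0% over its flanks.

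All 4 libraries thus shared this dense bin, and no library had it alone. Over the 200 kb the high library was at 1.09 of the low library for numbered pileups (0.987 to 1.19) and at 1.04 of saline replicate 2 (0.951 to 1.15). Saline replicate 1 stood above saline replicate 2, at 1.35 for numbered pileups (1.218 to 1.504) and 1.88 for listed peaks (1.55 to 2.27). The widest gaps in this stretch were those between saline replicate 1 and each of the other libraries.

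**Figure D5:**
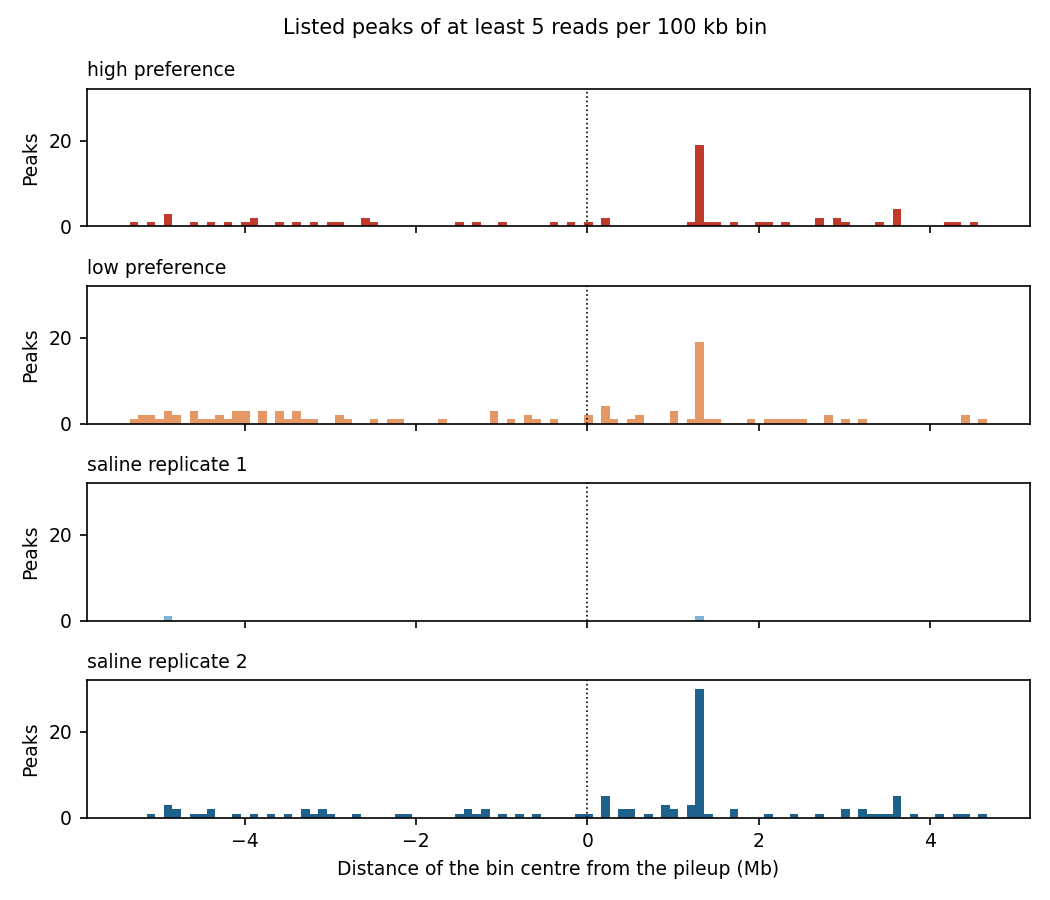
Number of listed peaks of at least 5 reads per 100 kb bin against the distance of the bin's centre from the pileup (Mb), 1 panel per library on the same axis. The bin from 163600000 to 163700000 stands out with 19, 19 and 30 such peaks in high preference, low preference and saline replicate 2, and with 1 in saline replicate 1, while the bin of the pileup holds 1, 2, 0 and 1.

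A second group of long, low pileups lay about 200 kb after the central one. At 162541831 to 162543265 the heights were 5 reads in the high library and 8 in the low library, with 4 in saline replicate 1 and 9 in saline replicate 2. Saline replicate 2 had there a single peak of 1220 bp, the second longest of its whole chromosome 1, and the low library had peaks of 519 and 656 bp. The high library was the lowest of the 3 deeper libraries here, with a ratio of 0.671 over low preference (0.173 to 2.33) and 0.595 over saline replicate 2 (0.157 to 1.98), both intervals wide. Next to it, 162544667 to 162545012 had 4, 4 and 8 reads in high preference, low preference and saline replicate 2 and no listed peak in saline replicate 1. At 162537100 to 162537593 the heights were 4, 7, 2 and 5 reads in the 4 libraries. The last 2 of the tallest regions were in the dense stretch, at 163695742 to 163696668 with 5, 4, 4 and 7 reads and at 163688473 to 163688845 with 4, 7, 2 and 5 reads. The order of the libraries changed from region to region.

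Regions were also merged from all peaks of at least 5 reads in any library, which gave 243 in the 10 Mb and 56209 on all placed chromosomes. A region was called when scaled heights differed at least 2 times, with heights under 3 set to 3. Higher in the high than in the low library were 6 of 243, that is 2.47% against a background of 2.17%. Without the central pileup these were 5. Those 5, named after their values were seen, had 6 or 7 reads in the high library and 0 to 3 in the low library. They lay at 163657284 to 163657463, 163692276 to 163692521, 164414247 to 164414483, 165210275 to 165210531 and 165935195 to 165935395, all after the pileup. Lower was 1 of 243 (0.412%, background 0.557%), at 158082110 to 158082340, with no listed peak in high preference and 7 reads in low preference. Both shares were near the background. A call against the floor needed only 6 reads in the high library and 7 in the low library, and the exact Poisson interval of 4 reads alone runs from 1.09 to 10.2.

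Over saline replicate 2 the high library was higher in 4 of 243 regions (background 2.08%), the central pileup among them, and lower in 4 (background 0.632%). The low library was lower than saline replicate 2 in 14 of 243 regions, 5.76% against a background of 4.31%. Most of the 14 lay just past the threshold, at a ratio of 0.499, and many were in the dense stretch. Against the floor, 6 reads in saline replicate 2 gave that ratio and a call. The same 6 reads in the low library gave 1.997 and none, so this count rests on the threshold. No count is given against saline replicate 1, since a call against the floor would need 12 reads in the high library, which only 2 of the 243 regions had.

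Flank regions were more often shared between libraries than regions on the rest of chromosome 1. Of 242 flank regions, 32 (13.2%) had a listed peak in all 4 libraries, against 282 of 5536 (5.09%) on the rest of the chromosome. The dense stretch carried this difference, with 24 of its 57 regions listed in all 4 libraries (42.1%). Without it the flanks had 8 of 185 (4.32%), close to the rest of the chromosome. A single library listed 54 of those 185 regions (29.2%), against 32.8% on the rest of chromosome 1.

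Sharing of the peaks of at least 5 reads also ran higher in the flanks, with the dense stretch left in. That stretch held 20 of 65, 20 of 99 and 33 of 104 of them in high preference, low preference and saline replicate 2. These shares were not computed without it. Of the 65 such flank peaks of the high library, 45 (69.2%, 95% Wilson interval 57.2 to 79.1) overlapped a listed peak of the low library. Exactly as many overlapped one of saline replicate 2. On the rest of chromosome 1 the shares were 47.8% and 47.9%. Of the 99 such peaks of the low library, 52.5% (42.8 to 62.1) overlapped a listed peak of the high library and 53.5% (43.8 to 63.0) one of saline replicate 2. On the rest of chromosome 1 these shares were 39.6% and 46.4%, the latter inside the flank interval. Of the 104 such peaks of saline replicate 2, 61.5% (51.9 to 70.3) overlapped a listed peak of the high library and 59.6% (50.0 to 68.5) one of the low library, against 43.0% and 47.0% on the rest of the chromosome. The lists overlapped differ in length, with 334866 peaks on chromosome 1 in the high library, 393772 in the low library and 394057 in saline replicate 2. Overlaps in which both peaks had at least 5 reads were fewer. Saline replicate 2 shared 7.69% (3.95 to 14.4) of its 104 with such peaks of the high library and 13.5% (8.19 to 21.3) with those of the low library. On the rest of chromosome 1 these shares were 4.97% and 5.56%, the former inside the flank interval. The low library also had more such flank peaks to overlap, 99 against 65 in the high library.

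Stretches without listed peaks were common to the libraries. The longest ran from 160280734 to 160469955 (189221 bp) in the high library, and from 160291746 to 160470810 in the low library. Saline replicate 1 had it from 160276461 to 160475283 and saline replicate 2 from 160291714 to 160470003. The second longest, near 166200206 to 166336451, and the third longest, near 159937537 to 160060815, were also found in all 4 libraries within a few kb. No peak was listed in the bin from 160300000 to 160400000 in any library. Across the whole empty stretch 15, 5, 31 and 5 unlisted pileups were numbered in the high library, the low library and saline replicates 1 and 2. None of the 3 longest empty stretches was particular to the high library.

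A publication on PARP1 and the retrieval of cocaine memory, taken here to be that of this study and known by its title only, reports PARP1 binding at the promoter of a gene for a putative transposase inhibitor. The position of that gene is not given in the sources used here. No annotation or genome of build rn4 was used, so the pileup at 162340788 to 162342127 was not placed in, near or away from that gene, and no base sequence of it is printed.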

How the data were processed

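The members and the measures of this text were chosen with earlier results of these data known. Each library has its own deposited peak list with 7 columns, and the headers name the first 5. Build rn4 and the tools Bowtie 0.12.7 and Picard 1.37 are named, per the submitters' processing notes, with no role given. Which peak caller was run, and whether duplicates were removed, is not given in the sources used here. The deposited column 6 was read as a signal, the height in reads, not scaled to depth. The deposited column 7, read as a p-value, had 1 value for each height on chromosome 1 and was used for no comparison. Both readings rest on the values. The lowest listed height on chromosome 1 was 2. Per the labels' protocols the ChIP DNA was amplified by PCR, and reads are not counted by molecule. Positions are copied from the lists, and no header says whether they start at 0 or 1.

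Numbered pileups came from differences of the deposited running number. Scaling used each library's total of the same measure on chromosome 1 outside the 10 Mb. For heights of single peaks and regions it used the numbered pileups there. Regions overlapping by 1 bp were merged. Samples were grouped by their labels. The bin rule was tested on simulated counts. Regions named are the pileup, the 6 other regions with the tallest peak, the bin of the pileup and its neighbours, and the 3 bins with the highest and the 3 with the lowest ratio. Alternatives were other scales, reaches, bin sizes, thresholds, overlaps and libraries left out. Python 3.11.15, numpy 2.4.6, pandas 2.3.3, scipy 1.17.1 and matplotlib 3.10.9 were used.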

Additional observations from a re-analysis of the deposited data

How the results depend on the processing

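The height of the pileup in the high preference library stayed 8.23 to 10.1 times that of the next library with no scaling and with a scale from summed heights. Leaving out either saline library could not change this ratio, since the next library was the low library. Over saline replicate 1 the pileup was 15.8 to 72 times as high with a scale from summed heights and with none. Over saline replicate 2 it was 13.1 to 15.8 times as high. These alternatives were chosen after seeing the data. Numbered pileups of the flanks, high over low preference, were 1.03 within 100 kb of the pileup. Listed peaks gave 1.07 with a scale from all placed chromosomes, 1.11 within 1 Mb and 1.16 within 100 kb. Summed heights gave 1.11 within 1 Mb and 1.20 within 100 kb. High preference over the saline mean was 1.01 in numbered pileups, 0.975 within 100 kb, and 0.995 and 1.02 without saline replicate 1 and 2. With the window split at its middle, chosen after seeing the data, the ratios of high over low preference were 0.985 for numbered pileups, 0.981 for listed peaks and 0.975 for summed heights in the first part. In the second part they were 1.05, 1.11 and 1.12. The bins called higher in high than in low preference numbered 0 with 250 kb bins, 0 with a ratio of 1.5, 2 with no minimum and 13 by listed peaks. By listed peaks 2 bins were lower. The regions called higher numbered 1 from peaks of at least 10 reads and 57 with a ratio of 1.5. At a ratio of 1.5, 5 reads in the high library against the floor were enough, at 1.79. Apart from listed peaks, no background share is given for these bin and region settings, so the counts are not read as an excess. Of 54 alternatives, 34 stayed within the main value's interval, spread or 1.5 times its count, among them those that could not change. The cause of the other changes was not tested. No paired analysis was possible because each cocaine group had 1 library. Depth limits saline replicate 1 most, with about 206 numbered pileups per 100 kb in the flanks.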
